A study of Mus musculus with 40 samples.

Results

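Myelin and oligodendrocyte maturation genes were examined for 2 histone marks in undifferentiated oligodendrocyte progenitor cells (OPCs). The set held 10 of the 55413 genes of the annotation, chosen by name: *Mbp*, *Mog*, *Mag*, *Mobp*, *Cnp*, *Myrf*, *Opalin*, *Ugt8a*, *Cldn11* and *Mal*. ChIP-seq recovers DNA bound to a modified histone with an antibody, and was done here for H3K4me3, found at active and poised promoters, and H3K27me3, laid down by Polycomb repressive complex 2. A gene was scored as marked where a peak touched the promoter of any of its transcripts, from 2000 bp upstream to 1000 bp downstream of the start (mm10).

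OPCs came from litters of postnatal day 5 to 7 carrying hGFAP-Cre, written AMGFAP-Cre in the labels, and a conditional H3.3 K27M allele. This GFAP promoter-driven Cre recombines in neural stem and progenitor cells and their progeny. K27M is a lysine 27 to methionine change in histone H3.3. Littermates of Control genotype served as controls, brains were pooled by region and genotype, and cells were panned on an anti-PDGFRa antibody after depletion of endothelial cells and microglia, then grown in proliferation medium with no differentiation step. Brainstem cultures 59 and 61 and telencephalon cultures 59, 60 and 61 (labelled cortex) each had a Control and a K27M library per mark, giving 5 matched pairs and 10 libraries for each mark, 20 in all. A group therefore held 2 or 3 pooled cultures, and errors cover the spread between cultures, not between animals.

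Myelin is the compacted membrane that oligodendrocytes wrap around axons, and its proteins and lipids are made in quantity only after an OPC leaves the cell cycle and matures. H3K4me3 broad over the beginning of a gene is common at genes that define a cell type, and H3K27me3 together with H3K4me3 (a bivalent promoter) is common at developmental genes held at low expression. K27M interferes with Polycomb repressive complex 2 and lowers H3K27me3 in most chromatin.

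H3K4me3 libraries held 20961 to 31200 peaks, with a peak at the promoters of 29.6% to 34.2% of all genes, while H3K27me3 libraries held 4739 to 64808 peaks at 3.76% to 20.2% of genes. Telencephalon culture 59 stood apart, with a median H3K4me3 enrichment over input at genes of 4.09-fold in the Control and 6.48-fold in the K27M library, against 11.7-fold to 60.9-fold in the other 8 libraries. As a check of cell type, 8 of 8 OPC markers had H3K4me3 in every library, and *Pdgfra*, the receptor used for panning, had a mean peak width of 12793 bp. Of 8 microglia markers 7 had none in any library and *P2ry12* had a peak in 8, whereas of 8 markers each, 4 astrocyte, 5 neuron and 2 endothelial genes had H3K4me3 in every library. In bulk chromatin, a mark in fewer cells and a weaker mark in each cell cannot be told apart.

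Of the 10 genes, 6 carried promoter H3K4me3 in every library and 4 carried it in none. The 6 were *Cnp*, *Cldn11*, *Ugt8a*, *Mbp*, *Myrf* and *Mal*, and the 4 were *Mog*, *Mag*, *Mobp* and *Opalin*. Among all genes 28.7% had H3K4me3 in every library and 63.9% in none, and among protein-coding genes the shares were 58.1% and 33.4%. No listed gene had H3K4me3 in some libraries and not in others, so the presence of this mark did not separate region, genotype or culture. H3K27me3 was found at *Mal* in 10 of 10 libraries, and at *Mbp*, *Myrf*, *Mobp* and *Mag* in Control libraries only.

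**Figure D1:**
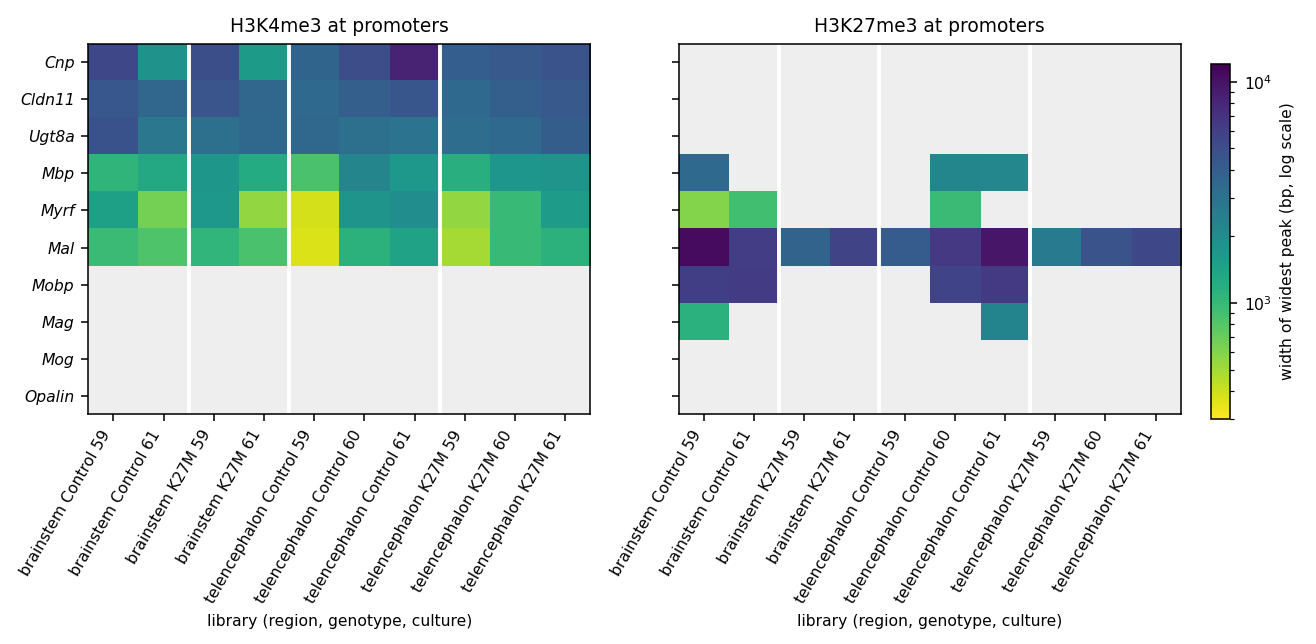
Width in bp (colour, log scale) of the widest peak at the promoters of each of the 10 genes (rows) in each of the 10 libraries per mark (columns), with grey for no peak. H3K4me3 fills 6 rows completely and leaves 4 empty, while H3K27me3 fills the *Mal* row and otherwise appears in Control columns.

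Promoter sequence was available for 8 of the 10 genes in RefSeq (GRCm38.p6), as a 300-base window from 250 bases before to 50 after the start. Genes with and without H3K4me3 differed in their number of CpG dinucleotides, so the sequence before the start is shown for examples of each kind, 5′ to 3′ on the strand of the gene, with CpG in capitals. *Ugt8a* (chr3:125938653-125938902, minus strand) and *Cldn11* (chr3:31149670-31149919, plus strand) are CpG-rich promoters with broad H3K4me3, *Mal* (chr2:127656696-127656945, minus strand) is the promoter with both marks, and *Mog* (chr17:37023399-37023648, minus strand) and *Opalin* (chr19:41077114-41077363, minus strand) had neither.
Ugt8a: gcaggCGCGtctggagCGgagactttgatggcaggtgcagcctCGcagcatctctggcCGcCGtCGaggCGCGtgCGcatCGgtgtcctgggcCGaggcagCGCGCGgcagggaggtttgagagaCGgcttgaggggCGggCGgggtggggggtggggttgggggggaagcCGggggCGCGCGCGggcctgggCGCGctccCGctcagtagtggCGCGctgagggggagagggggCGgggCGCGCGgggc
Cldn11: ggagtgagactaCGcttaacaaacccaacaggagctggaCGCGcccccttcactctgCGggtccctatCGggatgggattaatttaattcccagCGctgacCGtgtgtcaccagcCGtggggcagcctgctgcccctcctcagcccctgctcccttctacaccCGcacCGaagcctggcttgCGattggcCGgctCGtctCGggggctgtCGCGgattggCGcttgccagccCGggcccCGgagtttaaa
Mal: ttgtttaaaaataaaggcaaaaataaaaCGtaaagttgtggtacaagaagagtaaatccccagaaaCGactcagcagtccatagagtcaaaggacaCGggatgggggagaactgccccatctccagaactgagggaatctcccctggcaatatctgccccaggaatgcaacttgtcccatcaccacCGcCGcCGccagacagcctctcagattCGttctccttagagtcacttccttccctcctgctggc
Mog: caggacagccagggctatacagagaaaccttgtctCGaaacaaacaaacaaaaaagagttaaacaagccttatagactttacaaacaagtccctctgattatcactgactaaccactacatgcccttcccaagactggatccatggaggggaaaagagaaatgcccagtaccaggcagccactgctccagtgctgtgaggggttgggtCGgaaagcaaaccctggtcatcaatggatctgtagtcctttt
Opalin: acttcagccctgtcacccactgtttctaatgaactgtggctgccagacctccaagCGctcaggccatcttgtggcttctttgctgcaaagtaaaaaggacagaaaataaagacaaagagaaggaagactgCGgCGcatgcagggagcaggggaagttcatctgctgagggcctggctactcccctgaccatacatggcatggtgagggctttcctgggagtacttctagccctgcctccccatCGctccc

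The stretches shown hold 32 CpG in *Ugt8a*, 19 in *Cldn11*, 7 in *Mal*, 2 in *Mog* and 4 in *Opalin*. Over the full window, *Ugt8a* had 40 CpG, *Cldn11* 24 and *Cnp* 17, *Mal* had 8, and *Mag* (6 at most over 3 windows), *Mobp* (5), *Opalin* (4) and *Mog* (3) had the fewest. Of all 32851 RefSeq windows, the 47.9% with at most 6 CpG had H3K4me3 on the window in every library in 3.61% of cases and in no library in 89.9%, whereas windows with 17 or more had it in every library in 86.4%. The 4 genes without H3K4me3 thus all lay in the first class and *Cnp*, *Cldn11* and *Ugt8a* in the last. *Mal* lay between, in a class (7 to 16 CpG) where 43.8% of windows had H3K4me3 in every library and 39.2% in none.

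**Figure D2:**
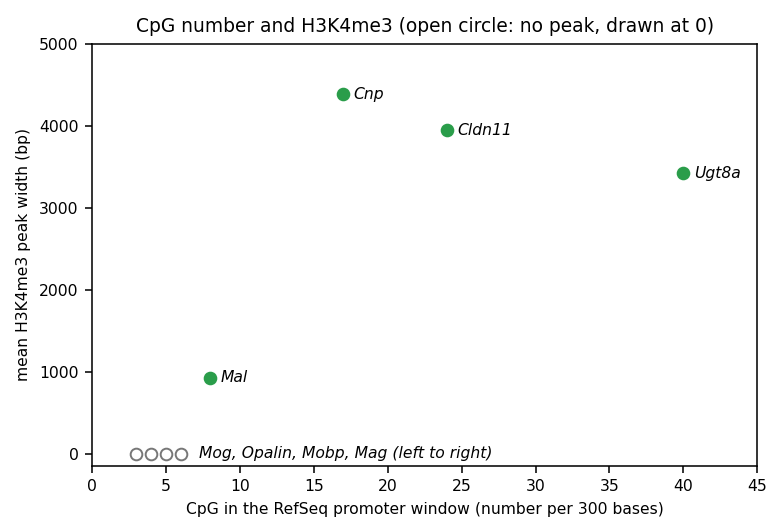
Number of CpG in the 300-base RefSeq window (x axis) and mean width of the promoter H3K4me3 peak over 10 libraries in bp (y axis) for the 8 genes with a window. The genes with 3 to 6 CpG had no peak and are drawn at 0 as open circles, *Mal* with 8 CpG had a narrow peak, and genes with 17 to 40 CpG had peaks of over 3000 bp on average.

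The windows were searched on both strands for ACAAAG, the core bound by SOX factors, for CTGGCAC, a core of the MYRF motif, and for TATAAA, the TATA box. The first, ACAAAG, was in the windows of *Mag*, *Mobp*, *Cnp* and *Opalin* and in 18.7% of all windows, CTGGCAC in those of *Mag*, *Cnp* and *Opalin* and in 5.01% of all windows, and TATAAA in none of the 8 genes' windows and in 13.6% of all. *Mobp* held 6 copies of ACAAAG, counting both strands, and was the only 1 of the 32851 windows to reach that number. These copies, in capitals as CTTTGT, are shown in the 215 bases before its first annotated start (chr9:120149492-120149706, plus strand).
Mobp: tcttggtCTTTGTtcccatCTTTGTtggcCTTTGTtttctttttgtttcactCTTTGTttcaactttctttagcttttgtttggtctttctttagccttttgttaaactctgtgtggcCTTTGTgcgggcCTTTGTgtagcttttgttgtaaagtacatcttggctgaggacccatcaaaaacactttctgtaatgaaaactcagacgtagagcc

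*Cnp*, *Cldn11* and *Ugt8a* had the broadest H3K4me3. *Cnp* (chr11:100574904-100591729, plus strand) encodes a phosphodiesterase of non-compact myelin that is among the first myelin proteins made. Its H3K4me3 peak measured 5381 and 1836 bp in brainstem Control 59 and 61, 4968 and 1608 bp in brainstem K27M 59 and 61, 3671, 4986 and 8489 bp in telencephalon Control 59, 60 and 61, and 3967, 4271 and 4666 bp in telencephalon K27M 59, 60 and 61. Both libraries of brainstem culture 61 were low and the other 8 were high, with telencephalon Control 61 the widest. The peak began between −489 and −44 bp from the start and ran into the gene, to 8092 bp past the start in that library. In brainstem K27M 61 a separate stretch of 270 bp followed the main peak.

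*Cldn11* (chr3:31149920-31164324, plus strand), a claudin that forms the tight junctions between myelin layers, had the steadiest peak. It measured 4385 and 3575 bp in brainstem Control, 4533 and 3536 bp in brainstem K27M, 3423, 3942 and 4483 bp in telencephalon Control, and 3391, 3912 and 4271 bp in telencephalon K27M. The 4 groups overlapped.

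*Ugt8a* (chr3:125865271-125938619, minus strand) encodes the transferase that makes galactosylceramide, a main myelin lipid. Its peak measured 4746 and 2761 bp in brainstem Control, 3081 and 3469 bp in brainstem K27M, 3462, 3086 and 2926 bp in telencephalon Control, and 3230, 3404 and 4067 bp in telencephalon K27M. The widest and the narrowest value were both in brainstem Control, and all groups overlapped. Its second start, 22.7 kb into the gene, had neither mark in any library.

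Among the 15931 genes with H3K4me3 in every library, the mean width was at the 93.0th percentile for *Cnp* (4384 bp), the 89.6th for *Cldn11* (3945 bp) and the 83.7th for *Ugt8a* (3423 bp). The other 3 genes with the mark lay far lower, at the 17.1th percentile for *Mbp* (1475 bp), the 7.55th for *Myrf* (1161 bp) and the 2.77th for *Mal* (925 bp). In 10 of 10 libraries each of the first 3 was wider than each of the last 3. *Cnp* was the widest in 8 libraries and *Cldn11* in the 2 of brainstem culture 61, while *Mal* was the narrowest in 8 and *Myrf* in 2.

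Enrichment over input depended on the library more than on the gene. The lowest values were in telencephalon culture 59, from 1.87-fold at *Myrf* to 5.71-fold at *Cldn11* in the Control library, and the highest in telencephalon Control 60 and 61, up to 88.6-fold at *Mbp*. Ranked among the genes of the same library, the median percentile of enrichment over the 10 libraries was 66.0 for *Ugt8a*, 53.9 for *Cldn11* and 42.9 for *Cnp*, against 36.5 for *Mbp*, 15.1 for *Myrf* and 15.1 for *Mal*. By this median the 3 broad genes ranked above the 3 narrow ones, but single libraries did not all keep that order. It held in both libraries of brainstem culture 61 and of telencephalon culture 59. *Mbp* ranked above *Cnp* in brainstem Control 59 (31.2 against 25.8), telencephalon Control 61 (46.4 against 40.9) and telencephalon K27M 60 (40.4 against 38.0). It ranked above *Cldn11* in brainstem K27M 59 (45.7 against 32.9) and above *Ugt8a* in telencephalon K27M 61 (50.5 against 42.6). In telencephalon Control 60, *Mbp* (percentile 74.0) and *Myrf* (66.6) ranked above *Ugt8a* (61.9), *Cldn11* (33.8) and *Cnp* (30.8). By the study's reporting summary, that library also had the most duplicate reads for H3K4me3.

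The 3 narrow genes were also the ones with H3K27me3 in at least 1 Control library, and the 3 broad genes had no H3K27me3 in any library. Of the 15931 genes with H3K4me3 throughout, 32.7% had H3K27me3 in at least 1 Control. The median of the mean H3K4me3 widths was 1803 bp over those 5215 genes, with quartiles of 1345 and 2445 bp, and 2470 bp over the 10698 genes with no H3K27me3 in any library, with quartiles of 1894 and 3183 bp. *Mbp*, *Myrf* and *Mal* were below the first of these medians and *Cnp*, *Ugt8a* and *Cldn11* above the second.

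**Figure D3:**
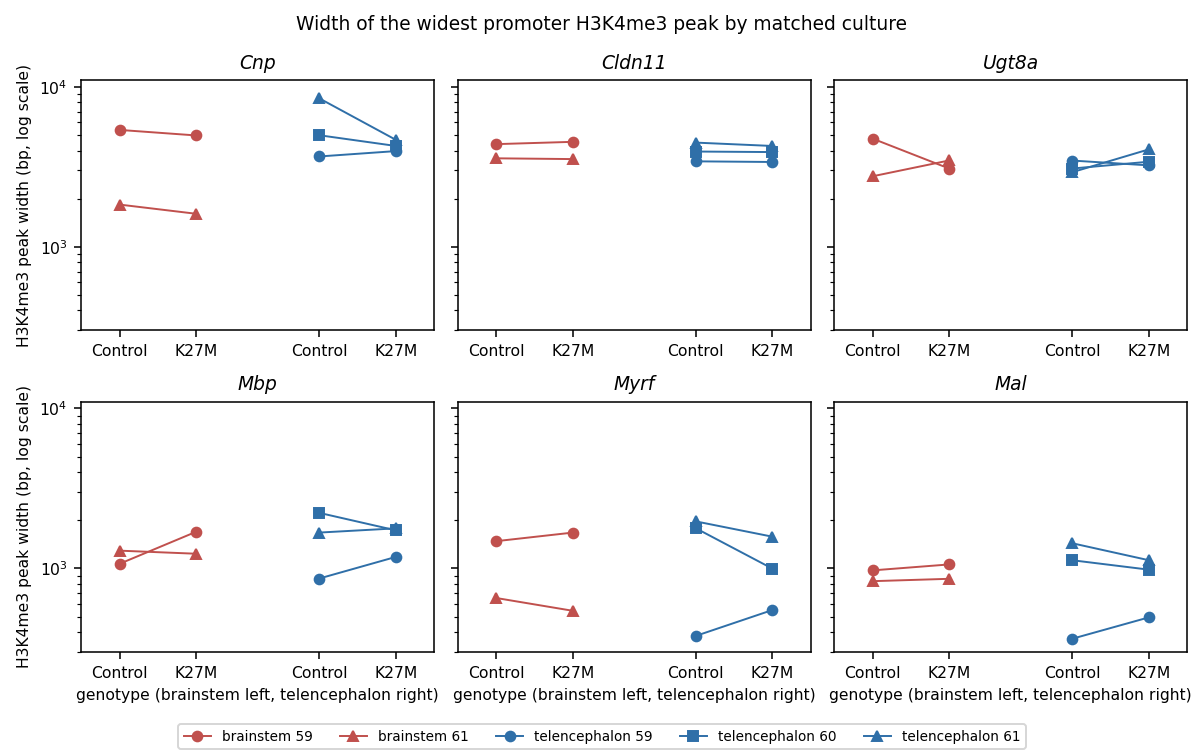
Width in bp (log scale) of the widest promoter H3K4me3 peak for the 6 genes that had one, with each point a library and lines joining the Control and K27M libraries of a matched culture (brainstem in red, telencephalon in blue). *Cnp*, *Cldn11* and *Ugt8a* lie above *Mbp*, *Myrf* and *Mal* in each library, and no gene shows Control and K27M values that do not overlap.

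*Mbp* (chr18:82475146-82585637, plus strand) encodes myelin basic protein, which compacts the cytoplasmic faces of the membrane. The locus also produces golli transcripts from starts far upstream, and H3K4me3 lay there. At these starts it measured 1069 and 1291 bp in brainstem Control, 1697 and 1235 bp in brainstem K27M, 864, 2226 and 1675 bp in telencephalon Control, and 1180, 1730 and 1780 bp in telencephalon K27M. Telencephalon Control held both the lowest and the highest value. The starts 79.3 kb into the locus, from which 11 protein-coding transcripts arise, had a single H3K4me3 peak of 613 bp in telencephalon Control 61 and none in the other 9 libraries.

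*Myrf* (chr19:10208272-10240748, minus strand), the transcription factor that switches on myelin genes in maturing oligodendrocytes, varied between cultures. Its peak measured 1480 and 653 bp in brainstem Control, 1675 and 543 bp in brainstem K27M, 378, 1785 and 1969 bp in telencephalon Control, and 549, 997 and 1579 bp in telencephalon K27M. Brainstem culture 61 and telencephalon culture 59 were low in both genotypes, so the values sorted by culture within each region, and the 4 groups overlapped.

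*Mal* (chr2:127633226-127656695, minus strand), a membrane proteolipid of lipid rafts in compact myelin, had the narrowest peak on average. It measured 972 and 832 bp in brainstem Control, 1059 and 861 bp in brainstem K27M, 363, 1125 and 1437 bp in telencephalon Control, and 494, 982 and 1125 bp in telencephalon K27M. Both libraries of telencephalon culture 59 were the lowest, and the groups overlapped.

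The remaining 4 genes encode proteins of mature cells. *Mog* (chr17:37010743-37023398, minus strand) is a glycoprotein of the outermost myelin surface, *Mag* (chr7:30899176-30914873, minus strand) an adhesion molecule of the membrane facing the axon, *Mobp* (chr9:120149707-120181484, plus strand) a basic protein of compact myelin and *Opalin* (chr19:41061710-41077113, minus strand) a transmembrane protein of oligodendrocytes. The nearest H3K4me3 peak to the first start of *Mog* lay 4.7 to 5.23 kb upstream in all 10 libraries, at no annotated promoter. The nearest to *Mobp* lay 18.3 to 19.9 kb upstream, at promoters of *Rpsa*, a ribosomal protein gene. *Mag* had a peak 5.5 to 6.01 kb downstream of its first start, inside the gene and at no annotated promoter, in brainstem Control 59, telencephalon Control 60 and 61 and telencephalon K27M 61, of 323 to 985 bp. In the other 6 libraries the nearest was 40.3 to 40.8 kb upstream. For *Opalin* the distance ranged from 4.03 to 129.0 kb, and the gene itself held no peak of either mark in any library.

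Control and K27M cultures were compared to ask whether the mutation changed H3K4me3 width before differentiation. None of the 6 genes passed the test. With log2 widths centred on the median of each library and the matched culture as a block, limma gave 0 of 15931 genes an adjusted p under 0.05 in either direction (0.0% in background), with 600 wider and 592 narrower in K27M at an unadjusted p under 0.05, or 1216 and 84 with widths not centred. *Cnp* had a log2 difference of −0.37 (SE 0.14, 5 pairs, adjusted p = 0.653 in limma), and its centred width was lower in K27M in 5 of 5 pairs, which held for 5.74% of all genes tested, while 2.91% were higher in 5 of 5 and no listed gene was. For *Cnp* these centred log2 differences ranged from −0.0049 in brainstem 61, close to no difference, to −1.02 in telencephalon 61. The width of *Cnp* in bp was lower in K27M in brainstem 59 and 61 and telencephalon 60 and 61, and higher in telencephalon 59. The other log2 differences were −0.25 (SE 0.18) for *Myrf*, −0.12 (SE 0.09) for *Cldn11*, −0.10 (SE 0.15) for *Mal*, −0.07 (SE 0.18) for *Ugt8a* and 0.04 (SE 0.13) for *Mbp*, with adjusted p of 0.729 to 0.943 in limma. The median difference was −0.11 over the 6 genes and −0.01 over all genes tested.

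Telencephalon and brainstem controls were compared to ask whether the regions differed without the mutation. Again no listed gene passed, and limma called 0 of 16042 genes in either direction. At an unadjusted p under 0.05 in limma, 263 were wider and 417 narrower in telencephalon, or 22 and 716 with widths not centred. On widths simulated with the spread of these data, this test found 12% of genes changed by 1 log2 unit and 70% of those changed by 2. The lack of calls therefore does not show that the regions were alike. The largest log2 differences, telencephalon minus brainstem, were 0.92 (SE 0.48) for *Cnp*, 0.48 (SE 0.30) for *Mbp* and 0.31 (SE 0.67) for *Myrf*, followed by 0.14 (SE 0.16) for *Cldn11*, 0.05 (SE 0.48) for *Mal* and −0.05 (SE 0.31) for *Ugt8a* (adjusted p = 1.0 in limma for each). The value for *Cnp* rested on the brainstem cultures, at 1.69 without culture 59 and 0.16 without culture 61, and ranged between these with any culture left out. Without telencephalon culture 59, limma called 228 genes wider and 108 narrower, none of them listed. No listed gene was separated between regions, neither wider nor narrower in every telencephalon than in every brainstem Control library, against 12.5% and 11.0% of all genes.

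In K27M cultures 1 of 16562 genes was wider in telencephalon (0.00604%) and 5 were narrower (0.0302%), none of them listed, and *Cnp* had a log2 difference of 0.60 (SE 0.32, adjusted p = 1.0 in limma). Again none was wider or narrower in every telencephalon than in every brainstem library, against 8.06% and 7.96% of all genes. The limma test of whether the effect of K27M differed between regions called 0 of 15931 genes. At an unadjusted p under 0.05 in limma, 353 were more positive and 305 more negative in telencephalon, or 500 and 32 with widths not centred. On simulated widths this test found 28% of genes changed by 1 log2 unit, and the test of regions in K27M cultures found 48%. For the listed genes the difference of effects, telencephalon minus brainstem, was −0.40 (SE 0.25) for *Mbp*, −0.32 (SE 0.29) for *Cnp*, −0.32 (SE 0.37) for *Myrf*, −0.27 (SE 0.31) for *Mal*, −0.20 (SE 0.19) for *Cldn11* and 0.17 (SE 0.40) for *Ugt8a* on the log2 scale, with adjusted p of 0.965 to 0.979 in limma.

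H3K27me3 showed more variation between libraries. Of the listed genes, 5 had an H3K27me3 promoter peak in brainstem Control 59, 3 in brainstem Control 61, 1 in telencephalon Control 59 and 4 each in telencephalon Control 60 and 61. Each of the 5 K27M libraries had 1, *Mal*. *Mbp*, *Myrf*, *Mobp* and *Mag*, 4 of the 10 genes, thus had the mark in at least 1 Control and in no K27M library. That pattern held for 16.9% of all genes and 22.3% of protein-coding genes. Of genes with H3K27me3 in at least 1 Control, that was 4 of 5 listed and 66.2% of all, and of genes with it in 3 or more Controls, 3 of 4 listed (*Mbp*, *Myrf* and *Mobp*) and 43.6% of all. None showed the opposite pattern, found in 0.083% of genes.

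The number of peaks called moved with this difference. Read depth for H3K27me3 also differed within pairs in the study's reporting summary, in either direction, and its part was not tested. The share of all genes with H3K27me3 fell from 18.3% to 5.79% between Control and K27M in brainstem 59, from 10.4% to 6.88% in brainstem 61, from 6.14% to 3.76% in telencephalon 59, from 16.4% to 7.43% in telencephalon 60 and from 20.2% to 5.91% in telencephalon 61. When only the 4739 most significant peaks of each library were kept, *Mal* still had the mark in 10 of 10 libraries, *Mobp* had it in brainstem Control 61 and telencephalon Control 61, and *Mbp*, *Myrf* and *Mag* had it in none. The pattern then held for 1 of 10 listed genes and 3.56% of all.

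At *Mbp*, H3K27me3 covered the golli starts in brainstem Control 59 (3398 bp, 2.77-fold over input), telencephalon Control 60 (2200 bp, 2.82-fold) and telencephalon Control 61 (2188 bp, 2.27-fold). It covered all of the H3K4me3 bases called in the matching library of brainstem 59, 71.3% in telencephalon 60 and 78.5% in telencephalon 61. At *Myrf* it was shorter, at 599 bp in brainstem Control 59, 922 bp in brainstem Control 61 and 967 bp in telencephalon Control 60, and began 153 to 302 bp past the start. It covered 40.5%, 40.9% and 54.2% of the H3K4me3 bases there. Telencephalon Control 61 had H3K27me3 at *Mbp* and not at *Myrf*, brainstem Control 61 the reverse, and telencephalon Control 59 at neither.

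At *Mobp*, the widest H3K27me3 peak measured 6080 and 6205 bp in brainstem Control 59 and 61 and 5753 and 6379 bp in telencephalon Control 60 and 61. These peaks lay inside the gene and touched the promoter of a non-coding transcript that begins 23.3 kb past the first start by 558, 204, 169 and 491 bp. The first starts had a peak of 526 bp in brainstem Control 59 only, and the next group of starts had peaks of 381 to 839 bp in brainstem Control 61 and telencephalon Control 60. Over the whole gene, 373 to 12626 bp lay in H3K27me3 peaks in the 5 Control libraries, and 4 of 5 K27M libraries also had a peak, with 0 to 3356 bp covered. At *Mag*, H3K27me3 of 1137 bp in brainstem Control 59 and of up to 2278 bp in telencephalon Control 61 lay upstream of the first start, at a promoter shared with *Gm44662*.

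*Mal* differed from the other 9 genes in having both marks in every library, and H3K27me3 extended over all of its H3K4me3 bases in each. H3K27me3 in every library was found at 3.28% of all genes, and at 61.4% of those with it in every Control. Both marks were found in every library at 795 of the 15931 genes with H3K4me3 throughout. The H3K27me3 peak measured 10727 and 6162 bp in brainstem Control 59 and 61, 3700 and 5628 bp in brainstem K27M, 4077, 6474 and 9588 bp in telencephalon Control 59, 60 and 61, and 2654, 4642 and 5367 bp in telencephalon K27M. It was narrower in K27M in 5 of 5 pairs, by a log2 difference of −0.72 on average (SD 0.52). Brainstem Control and K27M did not overlap, and the telencephalon groups did. How often the widths of other genes separated in this way, with so few libraries per group, was not tested. The two-sided exact sign-flip permutation test gave p = 0.0625, the smallest that 5 pairs allow. Of the 1820 genes with H3K27me3 in every library, 43.8% were narrower in 5 of 5 pairs, so *Mal* was not set apart by this.

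The fold enrichment of the *Mal* peak over input was 4.78 and 5.16 in brainstem Control, 7.41 and 8.18 in brainstem K27M, 3.01, 7.58 and 6.13 in telencephalon Control, and 2.76, 8.19 and 7.92 in telencephalon K27M. Again the brainstem groups did not overlap and the telencephalon groups did, and how common such a separation was among other genes was not tested. The enrichment was higher in K27M in 4 of 5 pairs and lower in telencephalon 59, with a mean log2 difference of 0.33 (SD 0.34, two-sided exact sign-flip permutation p = 0.188). An increase in 4 or 5 of 5 pairs was seen for 63.3% of the 1820 genes. These values are relative to the input of each library and were not scaled to the Drosophila spike-in.

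**Figure D4:**
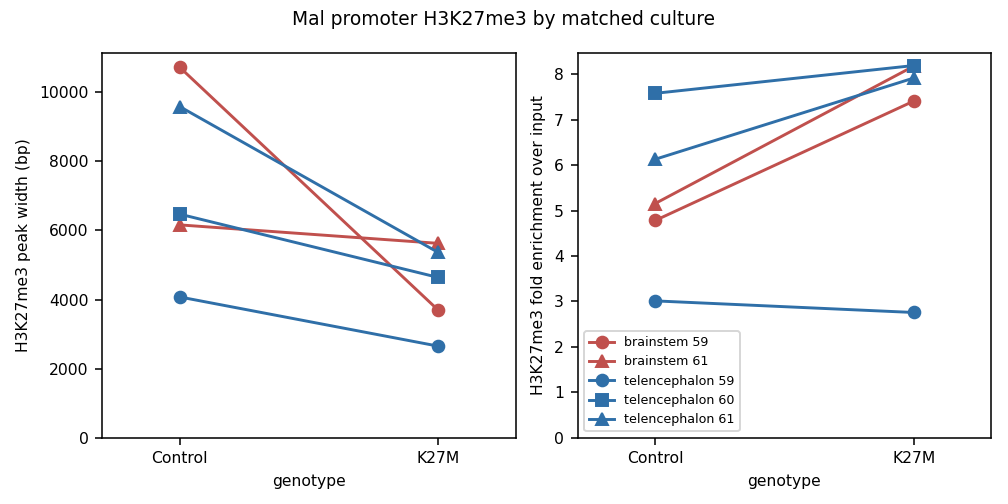
Width in bp (left) and fold enrichment over input (right) of the *Mal* promoter H3K27me3 peak in Control and K27M libraries, with lines joining matched cultures (brainstem in red, telencephalon in blue). The width falls in 5 of 5 pairs, from 4077 to 10727 bp in Control to 2654 to 5628 bp in K27M, and the enrichment rises in 4 of 5.

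**Figure D5:**
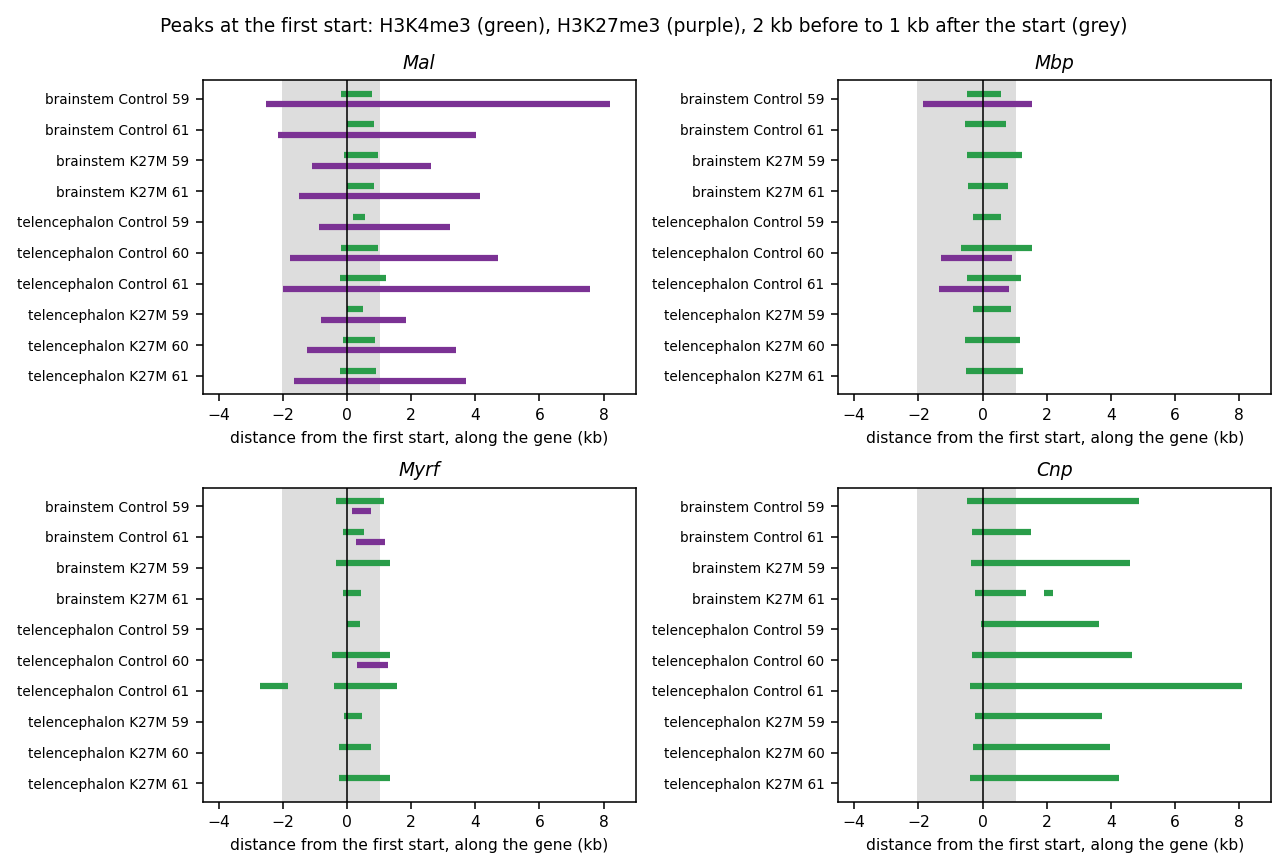
Extent of H3K4me3 (green) and H3K27me3 (purple) peaks at the first starts of *Mal*, *Mbp*, *Myrf* and *Cnp*, as distance in kb from the first start (x axis) in each culture (rows), with the promoter window around the first start in grey. H3K27me3 encloses H3K4me3 at *Mal* in each culture, appears in 3 Control cultures each at *Mbp* and *Myrf*, and is absent from the calls at *Cnp*, where H3K4me3 runs into the gene.

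Consensus peaks, requiring support in at least 2 cultures of a group and p-values within the thresholds given below, gave each gene a promoter state. In both regions and genotypes *Mal* was bivalent, *Cnp*, *Myrf*, *Ugt8a* and *Cldn11* had H3K4me3 only, and *Mog*, *Mag* and *Opalin* were unmarked. The overlapping *Myrf* H3K27me3 peaks of brainstem Control 59 and 61 did not pass these thresholds. At its golli starts *Mbp* was bivalent in telencephalon Control and had H3K4me3 only in brainstem Control and in K27M of both regions. Without telencephalon culture 60 or 61 it had H3K4me3 only in telencephalon Control too. Its starts 79.3 kb into the locus had H3K27me3 in no library. Support was needed from both brainstem cultures but from only 2 of 3 telencephalon cultures. *Mobp* had H3K27me3 only in Control of both regions and was unmarked in K27M, and with promoters from 1000 bp upstream to 500 bp downstream it was unmarked throughout. Bivalent genes were thus 1 of 10 in brainstem Control and 2 of 10 in telencephalon Control, against 4.6% and 7.32% of all genes. In K27M they were 1 of 10 in each region, against 3.05% and 3.54%. These shares are of all annotated genes, while the study gave states to expressed genes only. The difference between regions at *Mbp* was not tested.

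Other genes of the same program were split in a like way. Of 26 further myelin and maturation genes, 14 had promoter H3K4me3 in every library and 4 in none, namely *Aspa*, *Ermn*, *Enpp6* and *Evi2a*. The widest mean peaks were at *Gpr17*, a receptor of cells committed to differentiation (5676 bp), *Bcas1*, a marker of early myelinating oligodendrocytes (5503 bp), and *Fyn*, a kinase that promotes myelination (5031 bp). H3K27me3 was found in 3 or more Control libraries at *Cntn2* (5 of 5 Control and 5 of 5 K27M), *Tmem125* (4 and 0), *Car2* (3 and 0) and *Pllp* (3 and 2). *Cntn2*, an adhesion molecule of the node region, was the only 1 of the 26 with H3K27me3 in all 10 libraries, as *Mal* was among the 10. A total of 7 of the 26, or 26.9%, had H3K27me3 in Control libraries only, against 16.9% of all genes and 22.3% of protein-coding genes.

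The genes of sterol synthesis, which supply the cholesterol of myelin, formed a uniform group, with H3K4me3 in every library in 14 of 14, a median of mean widths of 3543 bp and no H3K27me3 in any library. The median over all genes with H3K4me3 throughout was 2252 bp. None of the 14 tested genes of the further myelin list and none of the 14 sterol genes passed the limma test of K27M against Control, with a lowest adjusted p of 0.651 and 0.679 and median log2 differences of −0.04 and 0.07. In the comparison of control regions, 0 of 14 passed in each list.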

How the data were processed

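The starting point was the 20 deposited peak tables. Alignment by the authors used BWA 0.7.17-r1188 and mm10, and MACS2 2.2.7.1 compared every library with the input of the same culture (narrow peaks for H3K4me3, broad peaks with a cutoff of 0.1 for H3K27me3), per the submitters' processing notes and the study's methods. Replicates were not pooled. The deposited columns give a fold enrichment relative to input together with −log10 p and −log10 q, which ranked and filtered peaks only. Read depth was not in these files. The study's reporting summary lists total and duplicate reads per library, which differed between libraries and were not used here. Precision therefore rests on the number of peaks, and signal below the caller's threshold was not measured.

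Overlapping peaks were merged per library. Promoters came from GENCODE M21 (GRCm38), while the study used M25. The widest H3K4me3 peak per gene, as log2 width centred on the library median, was tested in genes with a peak in every library with limma 3.58.1 (trended empirical Bayes, Benjamini-Hochberg adjustment over all genes) in R 4.3.3, with other steps in Python 3.11.15. K27M was compared with Control with the matched culture as a block, since the methods describe matched pairs. Deviations of matched libraries from their group means correlated with r = −0.00936 in the brainstem and 0.59, 0.386 and 0.365 in telencephalon 59, 60 and 61. Regions were compared without a block. The MSPC rule used by the study was rewritten for consensus peaks. H3K4me3 used a stringent p of 1e-10 and a weak p of 1e-06, H3K27me3 used 1e-08 and 1e-04, and states took the order bivalent, H3K4me3 only, H3K27me3 only, unmarked. Scripts were tested on simulated data.

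The listed genes, the other gene lists and the tests were chosen with earlier results of these data known. All 10 listed genes were named, and of other lists the genes called, those with H3K27me3 in 3 or more Control libraries and the 3 widest for H3K4me3. *Pdgfra*, *P2ry12*, *Aspa*, *Ermn*, *Enpp6* and *Evi2a* were named after their values were seen, and the count of ACAAAG copies was also added then. Motif and CpG counts used RefSeq promoter windows. Alternatives were uncentred widths, stricter or equal numbers of peaks, summed widths, a pseudocount of 100 bp, narrower promoters, an overlap of 300 bp, enrichment in place of width, other blocks, protein-coding genes only (chosen after seeing the data) and each culture left out.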

Additional observations from a re-analysis of the deposited data

How the results depend on the processing

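No listed gene passed the threshold in any of the 4 comparisons of H3K4me3 width under any alternative run, and 6 had H3K4me3 and 1 had H3K27me3 in every library under each alternative that changed the peaks, the promoters or the cultures used. With uncentred widths the median log2 difference of all genes was 0.10 for K27M against Control, −0.14 for the control regions and 0.15 for the difference of effects, against −0.011, 0.0092 and −0.0035 as reported. Genes called wider and narrower in K27M, 0 and 0 as reported, became 1 and 3 with summed widths and 0 and 3 with enrichment, and ranged from 0 to 1 and from 0 to 2 with a culture left out. Without the replicate block they stayed at 0 and 0. Between control regions they became 2 and 6 with the culture number as a replicate block and 0 and 3 with the pseudocount, and ranged from 0 to 228 and from 0 to 108 with a culture left out, the highest without telencephalon culture 59. Between K27M regions, 1 and 5 became 15 and 23 with that block, 20 and 36 with the pseudocount, 0 and 0 with summed widths, 0 and 5 with a −log10 q of at least 3, 1 and 2 uncentred and 1 and 2 for protein-coding genes, and ranged from 0 to 1 and from 0 to 5 with a culture left out. Samples of one number in the 2 regions correlated with r = −0.11 and −0.103 in Control and −0.445 and −0.392 in K27M, so the numbers were not taken to pair the regions, and a shared batch was not tested further. The difference of effects gave 1 and 0 with the pseudocount and 0 and 0 without the replicate block.

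Single-gene log2 differences that changed sign, none of them called, were, for K27M against Control, *Mbp* −0.031 with summed widths, *Cnp* 0.24 with enrichment, and *Ugt8a* 0.044 and *Mal* 0.014 uncentred. With a culture left out they ranged from −0.055 to 0.18 for *Mbp*, −0.21 to 0.13 for *Ugt8a* and −0.18 to 0.0043 for *Mal*. Between control regions they were *Cnp* −0.024 and *Cldn11* −0.12 with enrichment, *Cldn11* −0.012 and *Mal* −0.10 uncentred, and *Ugt8a* 0.029 and *Mal* −0.10 with the culture number as a replicate block, and ranged from −0.27 to 0.92 for *Myrf*, −0.43 to 0.33 for *Ugt8a*, −0.00071 to 0.28 for *Cldn11* and −0.26 to 0.49 for *Mal* with a culture left out.

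The mean number of listed genes with H3K27me3 per brainstem Control library, 4.0 as reported, was 2.5 with a −log10 q of at least 3 and 1.5 with equal numbers of peaks, and per telencephalon Control library fell from 3.0 to 1.33 with equal numbers. Listed genes with H3K27me3 in Control only numbered 4 as reported and with each culture left out, 3 with the stricter q and 1 with equal numbers. Bivalent genes in telencephalon Control numbered 1 where every culture had to hold a peak and 1 to 2 with a culture left out, and genes with H3K27me3 only in Control numbered 0 in brainstem and 0 in telencephalon with narrower promoters. Other causes of these changes were not tested. Peak lists limit these results to signal above the caller's threshold, and 5 pairs allow no exact p under 0.0625.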
